A study of Homo sapiens with 6 samples.

Results

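Matrix metalloproteases and the genes that restrain or induce them were examined in MDA-MB-231 cells with lowered MYO10. The set comprised MMP1, MMP2, MMP3, MMP9 and MMP14, the inhibitors TIMP1, TIMP2, TIMP3 and RECK, and the metalloprotease inducer BSG. Its members were all probe sets that the array's annotation assigns to a single one of these 10 symbols, which gave 24 of 54675 probe sets. The 10 genes stand among 19775 with a probe set of their own symbol. On these arrays each probe set combines several short probes against 1 transcript region. MDA-MB-231 is a human triple-negative breast cancer line with a mesenchymal-like, invasive phenotype. The labels name 3 samples that stably expressed MYOSIN10 shRNA, a short hairpin RNA against the gene now named MYO10, and 3 that stably expressed scramble shRNA, with 1 array each. All 6 were grown in L-15 medium with serum. The labels give neither the hairpin sequences nor whether the stable cells were clones or pools. They also do not say that the samples numbered 1 to 3 were separate cultures, so the p-values here cover the spread among these arrays, which may be purely technical.

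Matrix metalloproteases are zinc-dependent enzymes, made as inactive precursors, that cut collagens and other matrix proteins. MMP1 is an interstitial collagenase, MMP3 a stromelysin, MMP2 and MMP9 are gelatinases, and MMP14 is a membrane-anchored collagenase that also activates the MMP2 precursor together with TIMP2. TIMP proteins block the active site, RECK is a membrane-anchored inhibitor, and BSG, also called basigin or EMMPRIN, is a surface glycoprotein known to induce metalloprotease production. In invasive cells, MMP14 acts at invadopodia, actin-rich protrusions that degrade matrix, and MYO10 is a motor that travels to the tips of filopodia.

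No member passed the test. Of the 24 probe sets, 22 passed the filter on low signals, which together covered all 10 genes, and 0 of the 22 were called (limma, Benjamini-Hochberg adjusted p under 0.05), against 1.06% of the 33370 probe sets tested (0.692% higher and 0.366% lower in the knockdown). An unadjusted p under 0.05 was held by 3 members, against 13.2% of all tested, and the 3 arrays of one group lay wholly to one side of the other 3 for 4 members, against 18.1% of all tested. These shares are near the background. The member differences ran from -0.30 to 0.55 on the log2 scale, with 11 above 0 and 11 below, and their median was 0.027, against -0.0020 over all tested probe sets. Without scramble array 2, 1 of the 22 members was called, against 1466 of the 33370 probe sets tested. This member was a TIMP3 probe set described below.

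Signals are given as log2 of the array signal plus 16, and differences as MYOSIN10 shRNA over scramble shRNA on that scale, which understates changes of dim probe sets. Near the floor means that a probe set reached its array's 40th percentile on fewer than 3 of 6 arrays. That percentile lay at log2 signals of 5.56 to 5.66. The brightness of a probe set depends on its oligonucleotides as well as on the transcript, so levels are not compared between genes.

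The targeted gene was lower in the knockdown. MYO10's brightest probe set had log2 signals of 10.70, 11.39 and 10.64 with MYOSIN10 shRNA, against 11.57, 11.96 and 11.86 with scramble shRNA, or 54.2% of the scramble level (limma adjusted p = 0.0318). That call ended when MYOSIN10 shRNA array 1 (adjusted p = 0.145) or 3 (0.151) or scramble array 1 (0.0759) or 3 (0.163) was left out of the limma fit, and also with no filter (0.106), without the variance trend (0.309) and with robust variance estimates (0.0528). Of the other 4 MYO10 probe sets, 3 had negative differences and none was called, with limma adjusted p-values of 0.0514 or more and 3 of the 4 at an unadjusted p under 0.05. The remaining probe set, 1554026_a_at, was higher in the knockdown, at a log2 fold change of 0.31 (limma adjusted p = 0.647). Array pairs correlated between 0.973 and 0.982 across tested probe sets. Cell identity markers VIM and AXL lay above the 99th percentile of every array, while CDH1 and PGR were near the floor. ESR1, at percentiles 58.2 to 64.9, EPCAM and ERBB2 were not near the floor, and SPARC lay at percentiles 45.5 to 61.3. The epithelial marker EPCAM was read at 8.77 ± 0.13 with MYOSIN10 shRNA and 7.99 ± 0.61 with scramble shRNA (SD, n = 3 each), a difference of 0.77 without overlap (limma unadjusted p = 0.00762, adjusted p = 0.177), and CDH1, near the floor and not tested, ranged from 4.73 to 5.32 with MYOSIN10 shRNA, against 4.10 to 4.40 with scramble shRNA. Their part in the results was not tested. Among 5 fibroblast and 4 leukocyte markers, 4 and 2 passed the filter and 0 were called by limma, with none at an unadjusted p under 0.05. COL3A1, a fibroblast collagen near the floor by this definition, ranged from 4.14 to 7.88 in the knockdown, against 4.19 to 4.23 in scramble cells, and its part in the results was not tested.

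MMP14 and TIMP3, whose values follow, were the members with 4 probe sets all on one side of 0, MMP14 below and TIMP3 above, and their promoters are shown for that reason. RefSeq promoter windows of build GRCh38.p14 were matched for 5 of the 10 genes (MMP14, BSG, TIMP1, TIMP3 and RECK). The tested MMP2 probe sets also all lay above 0 and those of TIMP2 all below 0, but neither gene had a matched window. Each sequence below is the 250 bases before the gene's start on the plus strand, chr14:22836335-22836584 for MMP14 and chr22:32801455-32801704 for TIMP3, with capitals marking the GC box GGGCGG on either strand.
MMP14: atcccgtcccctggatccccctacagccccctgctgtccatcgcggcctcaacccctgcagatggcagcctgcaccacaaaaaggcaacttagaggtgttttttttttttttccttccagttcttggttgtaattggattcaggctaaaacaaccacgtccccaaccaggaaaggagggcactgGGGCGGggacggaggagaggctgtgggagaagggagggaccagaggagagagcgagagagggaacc
TIMP3: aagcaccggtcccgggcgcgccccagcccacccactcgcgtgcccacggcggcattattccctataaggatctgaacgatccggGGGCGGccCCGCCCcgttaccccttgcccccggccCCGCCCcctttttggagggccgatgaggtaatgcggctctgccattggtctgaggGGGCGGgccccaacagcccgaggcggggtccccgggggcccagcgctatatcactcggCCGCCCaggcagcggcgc
The MMP14 window held 1 GC box and 56.8% G or C, and the TIMP3 window held 5 and 72.4%. A GC box was found in 42.6% of the 35116 promoter windows of that length. Neither window held the AP-1 motif TGAGTCA on either strand, which 4.20% of all windows held, or TATAAA on either strand, which 10.7% held. These letters describe the windows and are not evidence of a bound factor.

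**Figure D1:**
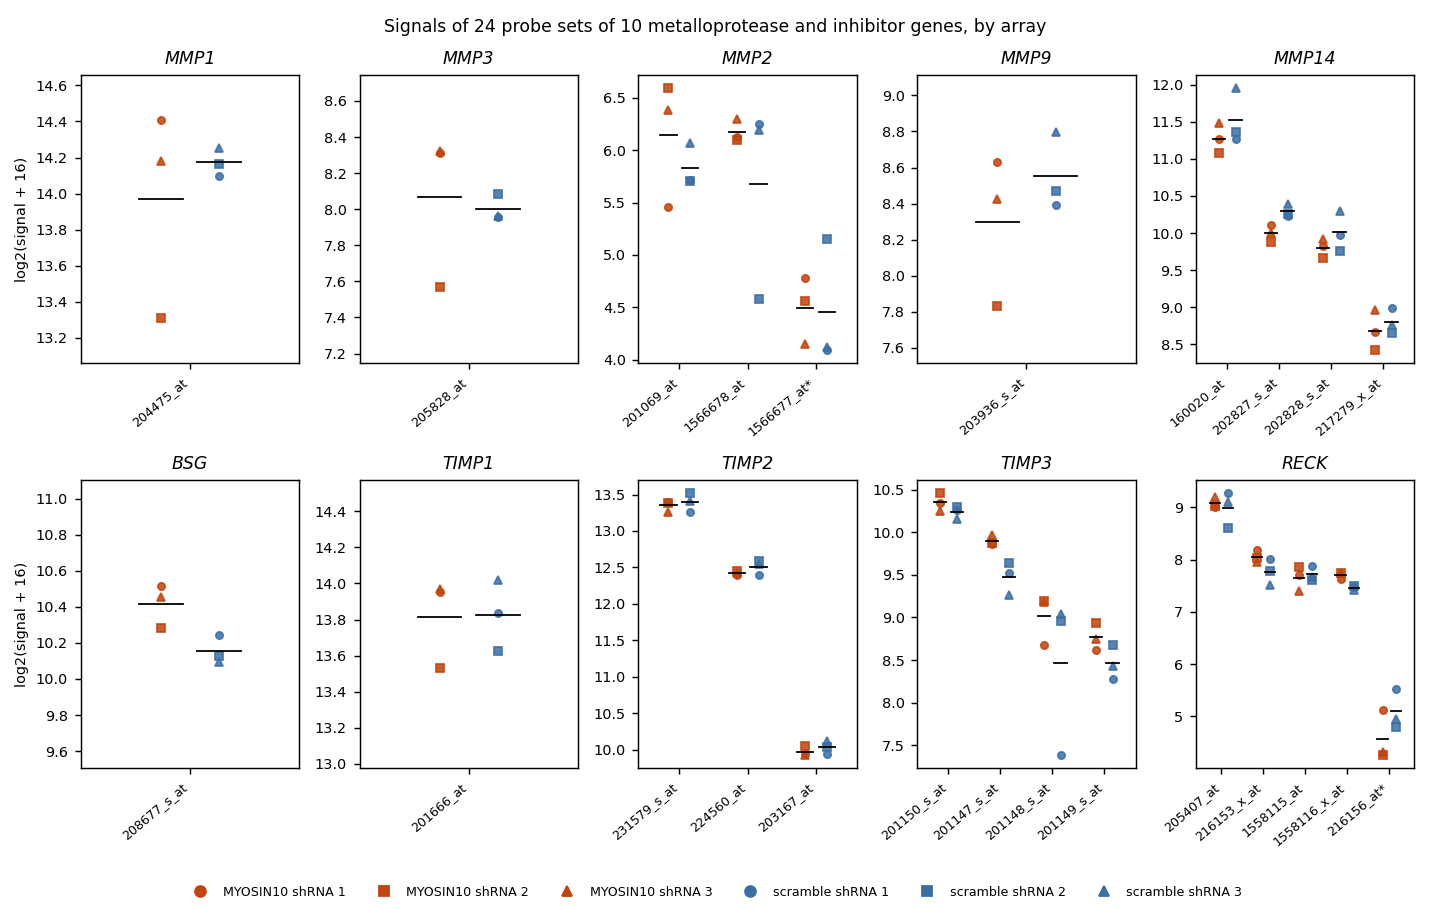
Log2(signal + 16) of all 24 member probe sets on each array, with 1 panel per gene and a vertical scale of its own for each panel. Symbols are arrays, black bars are group means (n = 3 each), and an asterisk marks the 2 probe sets near the floor. MYOSIN10 shRNA array 2 is the lowest array for MMP1, MMP3, MMP9, TIMP1 and every MMP14 probe set. The groups of TIMP3 201147_s_at, MMP14 202827_s_at, BSG and RECK 1558116_x_at do not overlap.

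Among the secreted proteases, the interstitial collagenase MMP1 was read by a single bright probe set. Its log2 signals were 14.41, 13.31 and 14.18 with MYOSIN10 shRNA, against 14.10, 14.17 and 14.25 with scramble shRNA. The scramble arrays lay within a narrow band, whereas the knockdown arrays included both the highest and the lowest value, the lowest being array 2. The group means were 13.97 ± 0.58 with MYOSIN10 shRNA and 14.17 ± 0.076 with scramble shRNA (SD, n = 3 each), and the log2 fold change was -0.21 ± 0.20 (SE; limma adjusted p = 0.736). Its 95% interval, which like the others here is not adjusted for multiple tests, ran from 0.639-fold to 1.18-fold. Without MYOSIN10 shRNA array 2 the log2 fold change was 0.12 (limma adjusted p = 0.604), so that its sign rested on this array.

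MMP3, a stromelysin that cuts many matrix proteins and activates other metalloprotease precursors, is the next coding gene to MMP1 on chromosome 11. Its log2 signals were 8.31, 7.57 and 8.32 with MYOSIN10 shRNA, against 7.96, 8.08 and 7.96 with scramble shRNA. Knockdown arrays 1 and 3 lay above all 3 scramble arrays and knockdown array 2 lay below them. The log2 fold change was 0.066 ± 0.20 (SE; limma adjusted p = 0.93). It was 0.31 without that array.

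The gelatinase MMP9 showed the same low array. Its log2 signals were 8.63, 7.83 and 8.42 with MYOSIN10 shRNA, against 8.39, 8.47 and 8.80 with scramble shRNA, so the groups overlapped. The log2 fold change was -0.26 ± 0.20 (SE; limma adjusted p = 0.648), and it was -0.026 without knockdown array 2.

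Knockdown array 2 was thus the lowest of 6 for all 3 of these proteases. It lay below the mean of knockdown arrays 1 and 3 by a log2 difference of -0.99 for MMP1, -0.74 for MMP3 and -0.69 for MMP9. Over all tested probe sets, 2.39%, 4.23% and 4.69% had a difference that low or lower. MMP2 201069_at lay the other way, with array 2 above that mean by 0.68 and the highest of 6 arrays. Of the 22 members, knockdown array 2 was the lowest array for 8 and the highest for 5, against 16.2% and 18.4% of all tested probe sets. Those 8 were the probe sets of MMP1, MMP3, MMP9 and TIMP1 and every MMP14 probe set, so that 1 gene was counted more than once. Knockdown array 2 was the highest of the 3 knockdown arrays on MYO10 probe sets 201976_s_at (the brightest), 216222_s_at, 244350_at and 1554026_a_at. On the remaining MYO10 probe set, 236718_at, array 3 was the highest of them. The pattern was seen in the values and has no test.

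MMP2, the gelatinase that MMP14 activates, lay near the lower limit of what these arrays read. Probe set 201069_at had log2 signals of 5.46, 6.60 and 6.38 with MYOSIN10 shRNA, against 5.71, 5.71 and 6.07 with scramble shRNA, and it lay at percentiles 36.7 to 56.9 of the arrays. Probe set 1566678_at had 6.13, 6.09 and 6.30 with MYOSIN10 shRNA, against 6.25, 4.58 and 6.19 with scramble shRNA. Each passed the filter on 5 of 6 arrays, and the third MMP2 probe set, 1566677_at, passed on 0 of 6, with log2 signals of 4.15 to 4.78 in the knockdown and 4.09 to 5.15 in scramble cells.

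The MMP2 differences of 0.32 ± 0.36 and 0.50 ± 0.43 (SE) had limma adjusted p-values of 0.775 and 0.695. Their 95% intervals reached from 0.727-fold to 2.14-fold and from 0.735-fold to 2.71-fold. The value of 201069_at was 0.66 without MYOSIN10 shRNA array 1 and 0.092 without MYOSIN10 shRNA array 2. Scramble array 2 alone set the value of 1566678_at, whose log2 fold change was -0.050 without it.

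MMP14 had negative differences at all 4 of its probe sets, with none called. The 202827_s_at signals were 10.10, 9.88 and 10.00 with MYOSIN10 shRNA, against 10.23, 10.25 and 10.39 with scramble shRNA. Every knockdown array lay below every scramble array. The log2 fold change was -0.30 ± 0.10 (SE; limma unadjusted p = 0.0142, adjusted p = 0.232), with a 95% interval from 0.696-fold to 0.952-fold.

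The brightest MMP14 probe set, 160020_at, had log2 signals of 11.26, 11.08 and 11.48 with MYOSIN10 shRNA, against 11.26, 11.36 and 11.96 with scramble shRNA. The groups overlapped, and scramble array 3 stood above the other 5. Its log2 fold change was -0.25 ± 0.16 (SE; limma adjusted p = 0.549), and -0.037 without scramble array 3. Probe sets 202828_s_at and 217279_x_at stood at -0.21 and -0.11 (limma adjusted p = 0.567 and 0.83), with 202828_s_at at -0.068 without scramble array 3 and 217279_x_at at 0.021 without knockdown array 2. That knockdown array was the lowest of 6 on every MMP14 probe set. Without it 160020_at stood at -0.16, 202827_s_at at -0.24 and 202828_s_at at -0.14. The 4 MMP14 probe sets read 1 gene on the same 6 RNA samples and are not independent of each other.

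The inducer BSG had log2 signals of 10.51, 10.28 and 10.45 with MYOSIN10 shRNA, against 10.25, 10.13 and 10.09 with scramble shRNA. All knockdown arrays lay above all scramble arrays, by a small margin between knockdown array 2 and scramble array 1. Its means were 10.42 ± 0.12 with MYOSIN10 shRNA and 10.16 ± 0.080 with scramble shRNA (SD, n = 3 each). The difference did not pass, with a log2 fold change of 0.26 ± 0.10 (SE; limma unadjusted p = 0.0246, adjusted p = 0.292) and a 95% interval from 1.03-fold to 1.40-fold.

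**Figure D2:**
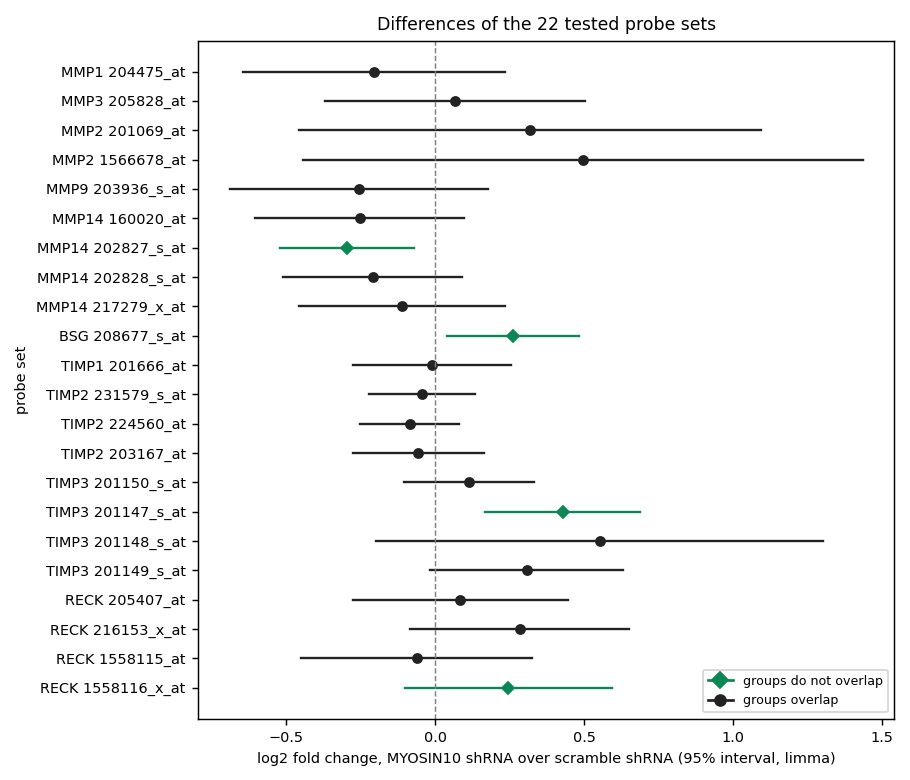
Log2 fold change of MYOSIN10 shRNA over scramble shRNA for the 22 tested probe sets, with 95% intervals from limma that are not adjusted for multiple tests. Green diamonds mark the 4 probe sets whose groups do not overlap, and 3 intervals, those of MMP14 202827_s_at, BSG and TIMP3 201147_s_at, do not include 0.

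Among the inhibitors, TIMP1, a soluble inhibitor of many metalloproteases, was read by a single bright probe set. It had log2 signals of 13.95, 13.53 and 13.97 with MYOSIN10 shRNA, against 13.84, 13.62 and 14.02 with scramble shRNA. In both groups array 2 was the lowest. The log2 fold change was -0.011 ± 0.12 (SE; limma adjusted p = 0.982), with a 95% interval from 0.826-fold to 1.19-fold.

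TIMP2, which both inhibits MMP2 and takes part in its activation at the cell surface, gave the tightest values of the set. Its probe set 224560_at had log2 signals of 12.40, 12.45 and 12.42 with MYOSIN10 shRNA, against 12.40, 12.59 and 12.54 with scramble shRNA. The groups met at their lower ends. The log2 fold change was -0.086 ± 0.077 (SE; limma adjusted p = 0.705), and its 95% interval ran from 0.839-fold to 1.06-fold. The other 2 probe sets, 231579_s_at and 203167_at, stood at -0.045 and -0.057 (limma adjusted p = 0.873 and 0.868), with 95% intervals between 0.825-fold and 1.12-fold.

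TIMP3, the inhibitor that binds to the extracellular matrix and also blocks several ADAM proteases, had positive differences at all 4 probe sets. The 201147_s_at signals were 9.86, 9.87 and 9.97 with MYOSIN10 shRNA, against 9.52, 9.64 and 9.26 with scramble shRNA. All knockdown arrays lay above all scramble arrays. The means were 9.90 ± 0.059 with MYOSIN10 shRNA and 9.47 ± 0.19 with scramble shRNA (SD, n = 3 each), for a log2 fold change of 0.43 ± 0.12 (SE; limma unadjusted p = 0.00378, adjusted p = 0.127) and a 95% interval from 1.12-fold to 1.61-fold.

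This TIMP3 probe set passed without scramble array 2 (0.51, limma adjusted p = 0.031) and without both arrays numbered 2 (0.52, 0.0314). It did not pass in the other 15 alternatives that tested it, the largest limma adjusted p being 0.397 without scramble array 3. Scramble array 2 was the closest of its group to the knockdown arrays. Over all 33370 probe sets, 1466 were called without scramble array 2 and 1655 without both arrays numbered 2, against 353 in the main fit.

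The other TIMP3 probe sets gave smaller or noisier differences. The brightest, 201150_s_at, had log2 signals of 10.34, 10.46 and 10.25 with MYOSIN10 shRNA, against 10.27, 10.30 and 10.15 with scramble shRNA, and a log2 fold change of 0.11 ± 0.10 (SE; limma adjusted p = 0.707). Its 95% interval reached 1.26-fold at most, against a value of 1.35-fold for 201147_s_at, and the difference between the 2 probe sets was not tested. Probe set 201149_s_at stood at 0.31 (limma adjusted p = 0.409).

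At 201148_s_at the log2 signals were 8.67, 9.19 and 9.18 with MYOSIN10 shRNA, against 7.38, 8.96 and 9.05 with scramble shRNA. Scramble array 1 alone was low, and the log2 fold change of 0.55 ± 0.35 (SE; limma adjusted p = 0.54) was 0.012 without it.

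RECK, the membrane-anchored inhibitor, was read by 5 probe sets that did not agree in sign. Probe set 1558116_x_at had log2 signals of 7.64, 7.75 and 7.74 with MYOSIN10 shRNA, against 7.47, 7.50 and 7.42 with scramble shRNA. Its groups did not overlap, yet the log2 fold change of 0.25 ± 0.16 (SE) had a limma adjusted p of 0.56. The brightest, 205407_at, had 9.00, 9.03 and 9.20 with MYOSIN10 shRNA, against 9.28, 8.60 and 9.10 with scramble shRNA, a difference of 0.085 (limma adjusted p = 0.884) that was -0.11 without scramble array 2.

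Of the remaining RECK probe sets, 216153_x_at stood at 0.28 (limma adjusted p = 0.519) and 1558115_at at -0.062 (0.926). The fifth, 216156_at, was near the floor on all 6 arrays, with log2 signals of 4.26 to 5.13 in the knockdown and 4.81 to 5.53 in scramble cells.

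**Figure D3:**
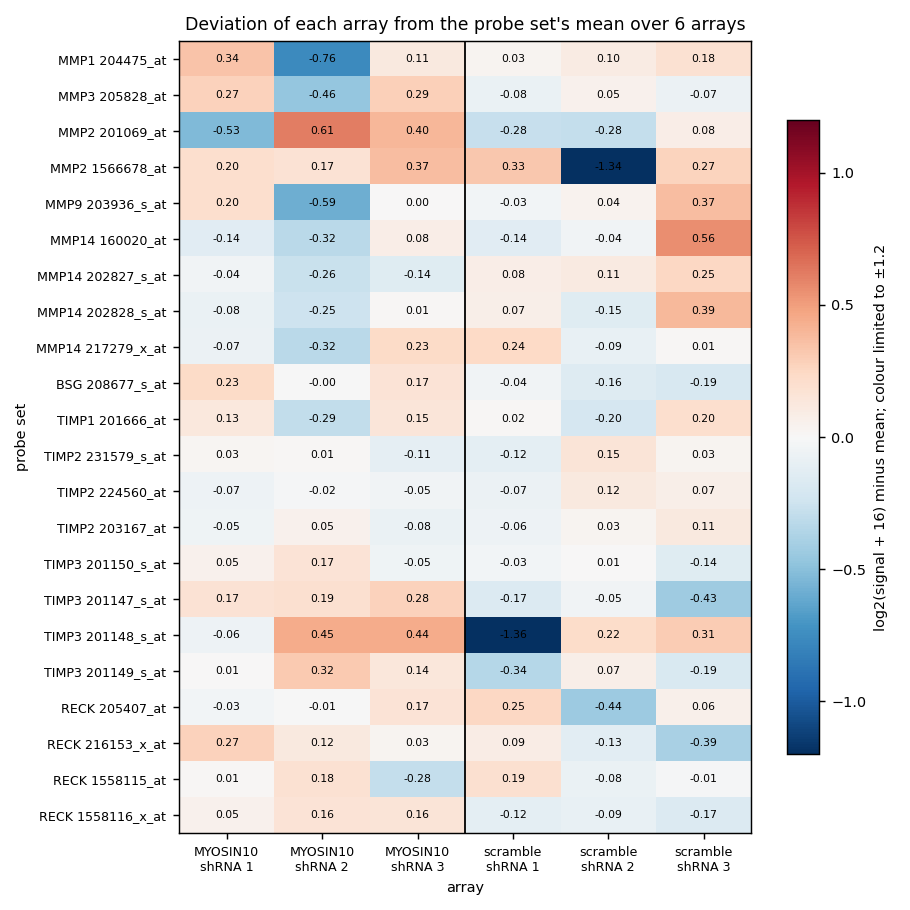
Deviation of each array's log2(signal + 16) from the probe set's mean over 6 arrays, with rows for the 22 tested probe sets and the 3 MYOSIN10 shRNA arrays left of the line. MYOSIN10 shRNA array 2 is the lowest of the 6 for MMP1, MMP3, MMP9, TIMP1 and every MMP14 probe set. The isolated dark cells are scramble array 2 at MMP2 1566678_at and scramble array 1 at TIMP3 201148_s_at.

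Related genes were read from 5 lists, each gene by its brightest tested probe set. Of 61 tested genes, 3 were called, against 1.39% of the 14174 genes so read (1.05% higher and 0.339% lower in the knockdown). An unadjusted limma p under 0.05 was held by 12 of the 61, against 2146 of the 14174. The lists were chosen with earlier results of these data known, so these shares are no test of enrichment. Without a variance trend in limma none of the 3 passed, with adjusted p-values of 0.16 for PLAU, 0.245 for TFPI2 and 0.219 for FOSL2. Of 10 other matrix metalloproteases, 0 were called by limma and 1 had an unadjusted p under 0.05, with a median log2 fold change of -0.11, against 0.0093 over all genes. MMP13, MMP17 and MMP24 were near the floor. MMP8, a collagenase best known from neutrophils, had dim log2 signals of 5.89, 5.48 and 5.81 with MYOSIN10 shRNA, against 7.43, 5.70 and 7.39 with scramble shRNA. Scramble array 2 overlapped the knockdown arrays, and the difference of -1.11 (limma adjusted p = 0.269) was -1.68 without that array, where it passed (0.00829). Leaving out that array called 1466 of all 33370 probe sets. MMP19 stood at 0.33 (limma adjusted p = 0.498) and its dimmer probe set at -0.92 (0.323).

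Among 11 tested ADAM and ADAMTS genes, which are relatives of the matrix metalloproteases, 0 were called by limma and 2 had an unadjusted p under 0.05, with a median of -0.13. ADAMTS6, a secreted family member, had log2 signals of 9.68, 9.89 and 9.44 with MYOSIN10 shRNA, against 9.97, 9.96 and 10.07 with scramble shRNA. Its groups did not overlap, at a log2 fold change of -0.33 (limma adjusted p = 0.276). It was -0.21 without MYOSIN10 shRNA array 3 and passed in 1 of 19 alternatives, without both arrays numbered 2 (-0.46, limma adjusted p = 0.0477). That alternative called 1655 of all 33370 probe sets. ADAM8 stood at -0.37 (limma adjusted p = 0.344), with array 2 the lowest in each group.

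The list of activators, docking and clearance partners held 2 calls among 13 tested genes, 1 higher and 1 lower, with a median of -0.063. The urokinase PLAU, which generates plasmin, an activator of metalloprotease precursors, fell in the knockdown. Its log2 signals were 13.16, 13.13 and 13.20 with MYOSIN10 shRNA, against 14.00, 13.73 and 14.01 with scramble shRNA (log2 fold change -0.75 ± 0.083 SE, limma adjusted p = 0.00188). The second PLAU probe set stood at -0.76 (limma adjusted p = 0.0258), and the call of the first held without any single array.

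TFPI2, a Kunitz-type inhibitor of plasmin and other serine proteases, rose. It had log2 signals of 12.27, 12.10 and 12.29 with MYOSIN10 shRNA, against 11.47, 11.82 and 11.50 with scramble shRNA (log2 fold change 0.62 ± 0.10 SE, limma adjusted p = 0.0133). The groups did not overlap. That call ended without MYOSIN10 shRNA array 1 or 3 or scramble array 1 or 3, with limma adjusted p-values of 0.0888 to 0.0932, and the second TFPI2 probe set stood at 0.59 (0.159).

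No invadopodium gene passed among 14 tested by limma, of which 2 had an unadjusted p under 0.05, and the median was 0.039. WASL, an activator of the Arp2/3 actin nucleator, had log2 signals of 11.15, 11.11 and 10.96 with MYOSIN10 shRNA, against 11.56, 11.32 and 11.53 with scramble shRNA, and stood at -0.40 (limma adjusted p = 0.0732) without overlap. Of 19 alternatives, 4 called WASL, including those that left out scramble array 2 (limma adjusted p = 0.0134) or both arrays numbered 2 (adjusted p = 0.0114) and the one with array weights (adjusted p = 0.0248). In that order, these alternatives called 1466, 1655 and 949 of all 33370 probe sets. The tyrosine kinase SRC stood at 0.57 (limma adjusted p = 0.223), and its second, dimmer probe set at -0.11.

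Of 13 tested transcription factors known to act on metalloprotease promoters, 1 rose and 0 fell, with 3 at an unadjusted p under 0.05 and a median of 0.17. The call was FOSL2, a subunit of AP-1, with log2 signals of 11.63, 11.54 and 11.67 in the knockdown, against 11.02, 11.16 and 11.10 in scramble cells (log2 fold change 0.52 ± 0.085 SE, limma adjusted p = 0.0119). All 4 of its other tested probe sets had positive differences, from 0.31 to 0.91, with limma adjusted p-values of 0.0681 to 0.52. The FOSL2 call ended without MYOSIN10 shRNA array 1 or 3 or scramble array 1 or 3 (limma adjusted p = 0.0673 to 0.0889).

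**Figure D4:**
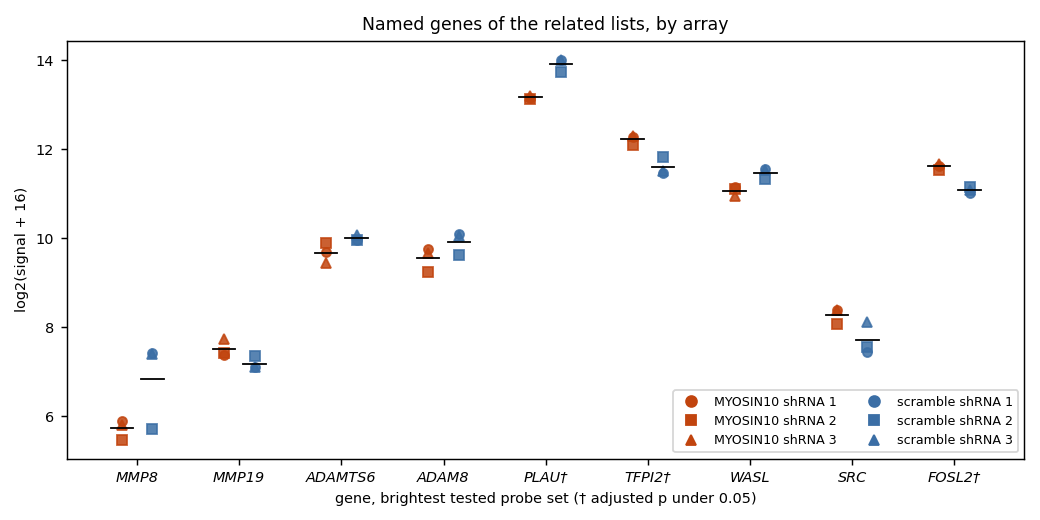
Log2(signal + 16) of the 9 named genes of the related lists on each array, by the brightest tested probe set, with black bars at the group means (n = 3 each). The groups of PLAU, TFPI2 and FOSL2, marked with a dagger for an adjusted p under 0.05, do not overlap, and scramble array 2 sits with the knockdown arrays for MMP8.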

How the data were processed

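The authors deposited log2 signals of 54675 probe sets on 6 arrays, made with MAS5 per the submitters' processing notes, with version and settings not given in the sources used here. A log2 scale was read from the values, since every array had a linear mean, after trimming 2% at both ends, of 500.07 to 500.08. Each value was made linear, 16 was added, and log2 was taken. Probe sets at or above the 40th percentile of the array on at least 3 of 6 arrays were kept (33370). Groups were compared per probe set with limma 3.58.1 in R 4.3.3 (lmFit, eBayes with a variance trend), two-sided, with Benjamini-Hochberg adjustment over all kept probe sets and calls at an adjusted p under 0.05. The fit was tested on simulated data. Symbols came from the platform annotation (1 symbol for 41097 probe sets, several for 1801, none for 11777), and 41043 were matched to a RefSeq symbol by Entrez number. Members were picked by the platform's own symbol. Members and lists were chosen with earlier results of these data known. Genes named were all members, MYO10 and, per related list, up to 4 called genes or the 2 with the smallest p. Of 3 array pairs sharing a replicate number, deviations from group means correlated at 0.033, 0.12 and 0.013, so the numbers were not taken as pairs. Alternatives were another pseudocount, filter, scaling, variance model or probe set rule, array weights, a replicate block and arrays left out. Arrays carry no read depth, and their number limits the precision. Python 3.11.15 and matplotlib 3.10.9 drew the figures.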

Additional observations from a re-analysis of the deposited data

How the results depend on the processing

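Over 19 alternatives, no member was called (limma) except that 1 TIMP3 probe set passed without scramble array 2 and without both arrays numbered 2. Members called thus ran from 0 to 1 with arrays left out in turn. The count over all probe sets, 353 of 33370, was 0 without a variance trend (limma, 3665 at an unadjusted p under 0.05), 949 with array weights and 891 with the replicate number as a block. It was 59 to 1466 with each array left out and 1655 without both arrays numbered 2. Some settings tested another number of probe sets. With no filter 173 of 54675 were called, with 1 probe set per gene 229 of 14174, and without _s_at and _x_at probe sets 226 of 21681. Related genes called, 3 of 61, were 0 without the trend (limma, 6 at an unadjusted p under 0.05), 5 with array weights and 5 with the replicate block. They were 1 to 6 with each array left out and 8 without both arrays numbered 2. Without _s_at and _x_at probe sets 1 of the 36 still tested was called, as that setting dropped the probe sets that read PLAU and TFPI2. Called MYO10 probe sets, 1 of 5, were 2 with a pseudocount of 64, the stricter filter, median centring or array weights, and 3 with the replicate block. They were 0 with no filter or without the trend (limma, each with 4 at an unadjusted p under 0.05), 0 to 2 with each array left out and 2 without both arrays numbered 2. Without _s_at and _x_at probe sets, a setting that dropped the called one, 0 of 3 were called (limma, 2 at an unadjusted p under 0.05). The replicate block called no member, and array pairs did not all correlate best with their own number.

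Differences that changed sign were all short of the threshold. TIMP1 stood at 2.42e-05 with array weights. With each array left out, log2 fold changes ran from -0.43 to 0.12 for MMP1, from -0.062 to 0.31 for MMP3, from -0.050 to 0.78 for MMP2 1566678_at, from -0.25 to 0.021 for MMP14 217279_x_at, from -0.11 to 0.13 for TIMP1, from -0.12 to 0.020 for TIMP2 231579_s_at, from -0.11 to 0.23 for RECK 205407_at and from -0.17 to 0.065 for RECK 1558115_at. Without both arrays numbered 2 they were 0.12 for MMP1, -0.011 for MMP2 1566678_at, 0.030 for TIMP1, 0.0019 for TIMP2 231579_s_at and -0.088 for RECK 205407_at. The cause was not tested. Of 393 member values under alternatives, 374 kept their sign and side of the threshold, 17 changed sign and 2 passed. Precision is limited by 3 arrays per group.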
